A study of Arabidopsis thaliana with 25 samples.

Results

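Arabidopsis genes lie close together, and the summits described here are ChIP-seq peak summits of transcript elongation factors that fell between neighbouring protein-coding genes at most 1000 bp apart. They were chosen by position alone: a summit had to lie outside every protein-coding gene, in a gap of at most 1000 bp with a protein-coding gene on both sides, and outside every noncoding gene. Of 30216 summits in 8 deposited lists, 1584 met this rule, and a further 48 in such gaps were left out because they lay in a noncoding gene. Gaps over 1000 bp held 1622 summits under the same rules and served as the comparison.

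Each of the 8 lists belongs to 1 of 4 factors, SPT5, ELF7, SSRP1 or SPT16, set over 1 of 2 forms of RNA polymerase II (RNAPII), phosphorylated on its carboxy-terminal domain at serine 5 (S5P) or serine 2 (S2P). All samples were seedlings of the Col-0 wild type grown with 16 h of light at 21 °C and 18 °C in the dark. The 25 samples were 4 ChIP libraries for each factor, 2 for RNAPII S5P, 2 for RNAPII S2P and 5 inputs. A heat step of 44 °C for 10 min stands in the protocol of every sample, but no label names a heated sample, so no heated group was formed. From the names of the lists, a summit was read as a place where the factor exceeded that RNAPII form, a reading the files do not state, so a summit is not a measure of factor occupancy alone. Each list was deposited without a column per library, so no value below has a replicate error, sequencing depth is unknown, and the intervals (95%) cover counting error within a list only.

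SPT5 travels with RNAPII as a partner of SPT4 and regulates its processivity and pausing. ELF7 belongs to the PAF1 complex, which couples elongation to histone modification, and SSRP1 and SPT16 form FACT, a histone chaperone that opens and restores nucleosomes around the polymerase. S5P marks RNAPII early in transcription and S2P marks it during productive elongation and towards the end of the gene. A short gap in a compact genome can hold a promoter, a terminator or both, and RNAPII often reads past the end of a gene into it.

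The summits in short gaps came mainly from SPT5 and SPT16 set over S5P. These lists gave 766 and 614 of the 1584 summits, 87.1% together, and the 4 lists over S5P gave 93.6%. SSRP1 over S5P added 99 and SPT16 over S2P added 75. The other 4 lists were sparse, with 15 summits for SSRP1 over S2P, 7 for SPT5 over S2P and 4 for each of the ELF7 lists. The 1584 summits stood at 1507 different bases, because lists shared some of them.

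As a share of its own list, SPT5 over S5P stood far above the others. Short gaps held 26.3% of its 2916 summits (24.7% to 27.9%, exact Clopper-Pearson), against 2.35% of 298 for SPT5 over S2P (0.950% to 4.78%). For SPT16 the share was 8.30% of 7394 summits over S5P (7.68% to 8.96%) and 1.14% of 6578 over S2P (0.898% to 1.43%). SSRP1, the other FACT subunit, followed the same order at a lower level, with 2.36% of 4199 over S5P (1.92% to 2.86%) and 0.275% of 5451 over S2P (0.154% to 0.453%). The share over S5P was thus higher than the share over S2P by 23.9 percentage points for SPT5, 7.16 for SPT16 and 2.08 for SSRP1, or 11.2, 7.28 and 8.57 times. Among summits with a score of at least 10, the shares of SPT5 were 25.8% over S5P (24 summits in short gaps) and 16.7% over S2P (1 summit), a difference of 9.14 points, and the SSRP1 difference was 0.351 points (2 summits in short gaps over each form). ELF7 was rare in short gaps over either form, with 0.577% of 693 over S5P (0.157% to 1.47%) and 0.149% of 2687 over S2P (0.0406% to 0.381%), and these intervals overlapped. Under the reading above, the lists of a factor share its libraries, so the values of a factor are not independent. Short gaps had 4.54 Mb of bases outside noncoding genes, and their share of all chromosome bases is not given here. The shares of the lists therefore compare lists, and do not show whether a list was over- or underrepresented in short gaps.

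**Figure D1:**
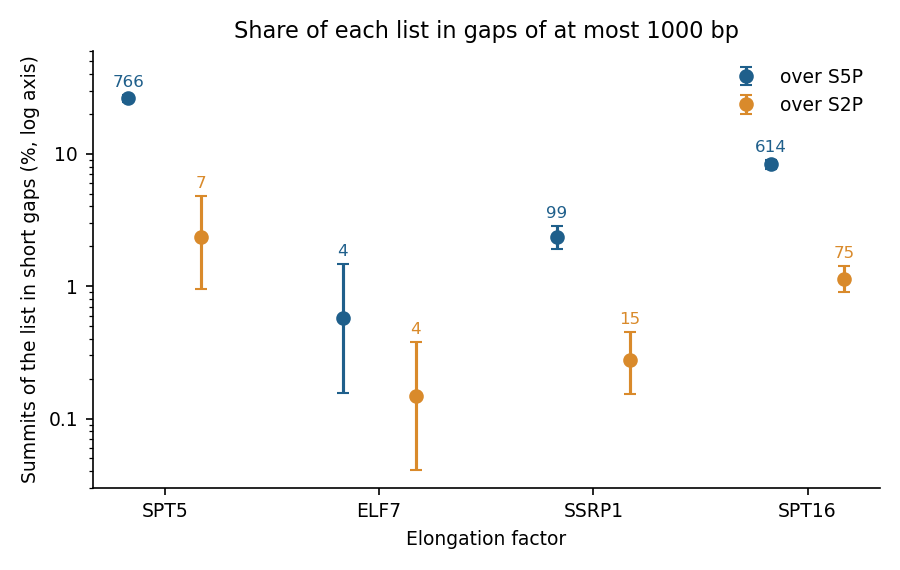
Share of each list's summits that lay in gaps of at most 1000 bp, in percent on a log axis, by factor, with S5P left of S2P; bars are exact Clopper-Pearson 95% intervals for counting error and the numbers are summits. SPT5 over S5P stands at 26.3%, against 2.35% for SPT5 over S2P, and the intervals of the 2 forms overlap for ELF7 only.

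Among summits in any gap, the lists differed in how many chose the short ones. Short gaps held 59.4% of the gap summits of SPT5 over S5P (56.6% to 62.1%) and 50.8% of those of SPT16 over S5P (48.0% to 53.7%). They make up 10.6% of all gap bases outside noncoding genes, a share that is not matched for distance from a gene. Within 100 bp of a gene lay 43.3% of the 4.54 Mb of short gaps, and 2.15 Mb of longer gaps. Densities at the same distance are given below. SSRP1 over S5P had 38.4% of its gap summits there (32.4% to 44.6%). The shares over S2P were lower, at 17.5% for SPT5 (7.34% to 32.8%), 27.8% for SPT16 (22.5% to 33.5%) and 13.5% for SSRP1 (7.77% to 21.3%). ELF7 had too few gap summits for such a comparison, 4 of 6 over S5P and 4 of 23 over S2P.

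Of the 12729 short gaps, 1066 held a summit of any list, which is 8.37%. By list, 6.00% of the gaps held SPT5 over S5P, against 0.0550% for SPT5 over S2P. SPT16 stood in 4.82% over S5P and 0.589% over S2P, SSRP1 in 0.770% over S5P and 0.118% over S2P, and ELF7 in 0.0314% over S5P and 0.0314% over S2P. A gap almost always held a single summit of a list: 2 gaps held 2 of SPT5 over S5P, and 1 gap each held 2 of SSRP1 over S5P and of SPT16 over S5P. In 3 of these 4 gaps the summits stood 418 to 588 bp apart, each within 39 bp of a different gene, while the gap between NF-YC13 and AT5G43260 held 2 only 252 bp apart.

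Within the gap, the summits lay close to one of the genes. They were scarce in the centre of the gap: with the gap cut into 5 equal parts, the middle part held 12.4% of SPT5 over S5P summits (10.2% to 14.9%) and 8.96% of SPT16 over S5P summits (6.82% to 11.5%), against 19.9% of the gap bases. The outermost parts on both sides together held 58.4% for SPT5 (54.8% to 61.9%) and 64.3% for SPT16 (60.4% to 68.1%), against 40.2% of the bases. The median distance from the summit to the nearest gene end was 51 bp for SPT5 over S5P, 48 bp for SPT16 over S5P and 46 bp for SSRP1 over S5P, and 121 bp for a base of a short gap. The interval of SPT16 over S5P (44 to 53 bp) overlapped that of SPT16 over S2P, whose median was 67 bp (44 to 92 bp). SSRP1 over S5P lay nearer to genes (38 to 56 bp) than SSRP1 over S2P, at 147 bp (65 to 280 bp, 15 summits). The gaps also differed in length. Their median was 345 bp for SPT5 over S5P, 422.5 bp for SPT16 over S5P and 434 bp for SSRP1 over S5P. It was 703 bp for SSRP1 over S2P and 615 bp for a base. In gaps of at most 250 bp, median distances over S5P were 31 bp for SPT5, 25 bp for SPT16 and 35.5 bp for SSRP1, against 34 bp for a base. SPT5 and SSRP1 over S5P were thus about as near to genes there as the bases.

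In gaps over 500 bp, where a summit has room to stand away from both genes, the closeness remained for the S5P lists. There 71.2% of 267 SPT5 over S5P summits (65.3% to 76.5%) and 69.8% of 255 SPT16 over S5P summits (63.8% to 75.4%) lay within 100 bp of a gene, against 27.6% of the bases. Bases more than 200 bp from both genes made up 45.0% of these gaps but held 4.87% of the SPT5 summits (2.62% to 8.18%) and 9.41% of the SPT16 summits (6.12% to 13.7%). Over S2P, SPT16 had 54.8% of 42 summits within 100 bp (38.7% to 70.2%) and 19.0% beyond 200 bp (8.60% to 34.1%). SSRP1 over S2P had 4 of its 11 summits within 100 bp and 6 beyond 200 bp, a split whose intervals (10.9% to 69.2% and 23.4% to 83.3%) include the shares of the bases.

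Set against the gene side of the same boundary, the factors differed. This comparison was not planned. Genes of at least 1000 bp were used where they face a gap over 500 and up to 1000 bp free of noncoding genes. They gave 6025 ends, each a start or a terminus, as strand was not used. Summits within 100 bp of the end were counted on either side. SPT5 over S5P had 169 on the gap side and 57 on the gene side, so 74.8% stood outside the gene (68.6% to 80.3%). SPT16 over S5P had 163 and 81, or 66.8% outside (60.5% to 72.7%), and SPT16 over S2P had 18 and 5, or 78.3% (56.3% to 92.5%). SSRP1 over S5P showed no such lean to the gap, with 19 on the gap side and 29 on the gene side, or 39.6% outside (25.8% to 54.7%). The intervals of SPT16 and SSRP1 over S5P, the partners in FACT, did not overlap. ELF7 had 1 summit over S5P and 0 over S2P within 100 bp of these ends.

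The profiles of SPT5 and SPT16 over S5P across the end were highest just outside the gene. SPT5 over S5P reached 312 summits per Mb at 1 to 50 bp into the gap (252 to 382, exact Poisson) and 249 at 51 to 100 bp. It was 120 in the 50 bp of the gene next to the gap (83.7 to 165) and 23.2 between 200 and 250 bp into the gap (9.34 to 47.9). SPT16 over S5P had 285 per Mb in the first 50 bp of the gap (228 to 353) and 173 in the 50 bp of the gene next to it (129 to 226). It had 29.9 between 200 and 250 bp into the gap. SSRP1 over S5P had 46.5 per Mb in the first 50 bp of the gap (25.4 to 78.0) and 59.8 in the 50 bp of the gene next to it (35.4 to 94.4), and these intervals overlapped. The highest step of SSRP1 over S5P lay inside the gene, at 200 to 249 bp from the end, with 83.0 per Mb (53.7 to 123). SPT16 over S5P had 73.0 there and SPT5 over S5P 26.6. That step is the farthest into the gene that was counted, and its SSRP1 interval overlapped those of the steps next to the end. It was also the highest step of SSRP1 over S2P, with 96.3 per Mb, and of SPT16 over S2P, with 83.0.

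**Figure D2:**
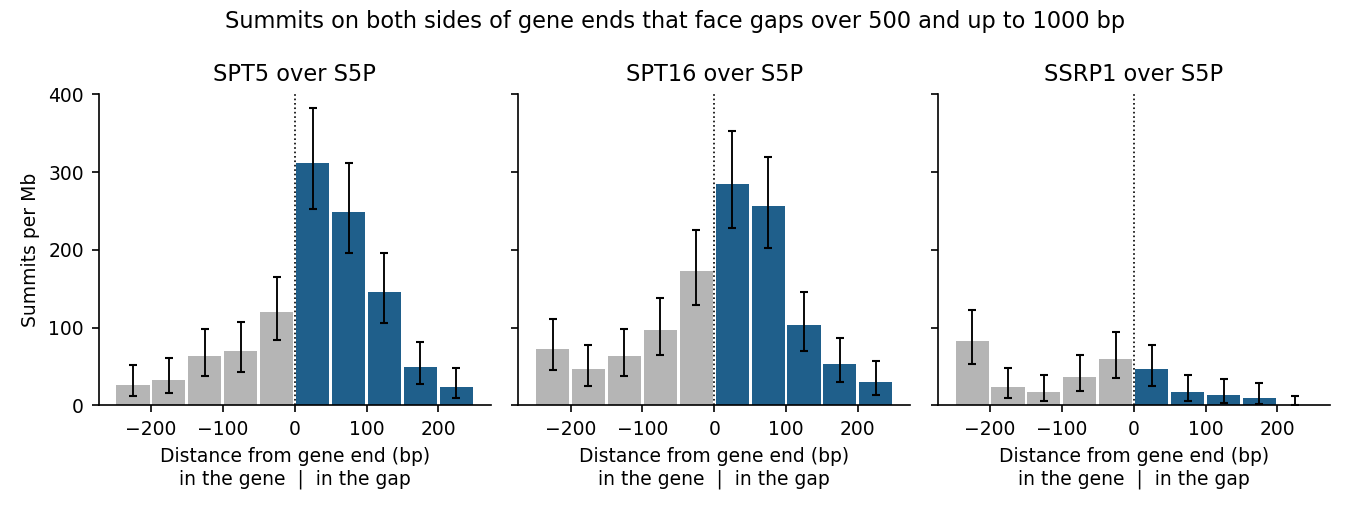
Summits per Mb in steps of 50 bp on the gene side (grey, negative distance) and the gap side (blue) of gene ends facing gaps over 500 and up to 1000 bp, for 3 lists over S5P; bars are exact Poisson 95% intervals for counting error. SPT5 and SPT16 are highest in the first 50 bp of the gap, at 312 and 285 per Mb. SSRP1 has 46.5 there and is highest inside the gene, at 83.0 in the step farthest from the end, and these intervals overlap.

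Summits were denser beside genes that face a short gap than beside genes that face a longer one, at the same distance. This comparison was added after the data were seen. It used gaps over 250 bp, in which no base lies within 100 bp of both genes. At 1 to 100 bp from a gene, SPT5 over S5P had 256 summits per Mb in gaps over 250 and up to 1000 bp (230 to 284) and 162 in gaps over 1000 bp (146 to 180), 1.57 times as many. SPT16 over S5P had 234 (210 to 262) against 144 (129 to 161), 1.63 times as many, and SSRP1 over S5P had 40.1 (30.2 to 52.1) against 20.9 (15.3 to 28.0), 1.91 times. SPT16 over S2P had 27.7 (19.6 to 38.0) against 16.7 (11.7 to 23.2), 1.65 times, but these intervals overlapped. The other lists had at most 12 summits in either class and were not compared.

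The change with gap length was gradual for SPT5 over S5P. At 1 to 100 bp it had 276 summits per Mb in gaps over 250 to 500 bp (235 to 322), 258 in gaps over 500 to 750 bp (212 to 310) and 220 in gaps over 750 to 1000 bp (173 to 275). It had 166 in gaps over 1000 to 2000 bp (140 to 195) and 162 in gaps over 2000 to 5000 bp (136 to 192). Neighbouring classes overlapped in their intervals, and the shortest and longest of these classes did not. SPT16 over S5P followed with 246, 233, 217, 170 and 138 per Mb in the same 5 classes. Whether the genes beside short and longer gaps differed in transcription was not tested.

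**Figure D3:**
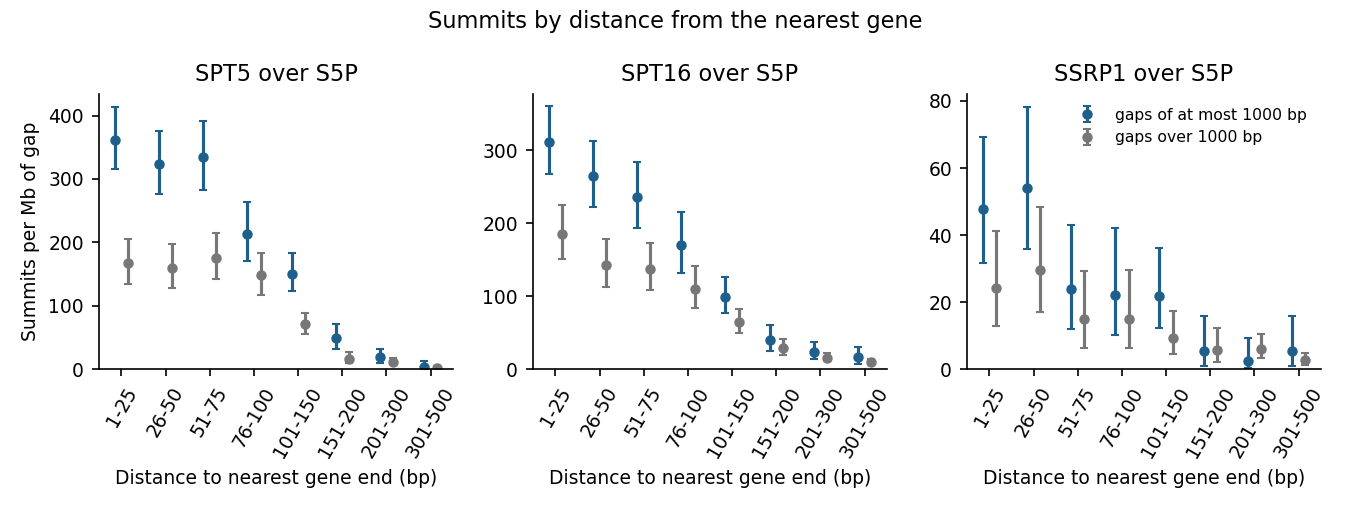
Summits per Mb of gap by distance from the nearest gene end, in gaps of at most 1000 bp (blue) and over 1000 bp (grey), for 3 lists over S5P; bars are exact Poisson 95% intervals, and the shortest gaps count bases that are near both genes. For SPT5 over S5P the first 25 bp hold 362 per Mb in short gaps and 167 in longer ones, and both fall to under 20 per Mb between 200 and 300 bp.

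Over the whole length of short gaps, the density per base and the share of gaps did not follow the same order. The density of SPT5 over S5P was 441 summits per Mb in gaps up to 250 bp, 213 in gaps over 250 to 500 bp, 118 in gaps over 500 to 750 bp and 71.1 in gaps over 750 to 1000 bp. The share of gaps that held one was 4.77% (4.23% to 5.36%), 7.64% (6.72% to 8.66%), 7.01% (5.99% to 8.14%) and 5.91% (4.87% to 7.10%) in the same order. So the shortest gaps were densest per base and yet held a summit less often than gaps over 250 to 750 bp. SPT16 over S5P had 285, 172, 110 and 70.4 per Mb, and stood in 3.08% (2.65% to 3.56%), 6.17% (5.33% to 7.09%), 6.57% (5.58% to 7.67%) and 5.85% (4.82% to 7.04%) of the gaps. SSRP1 over S5P was most frequent over 250 to 750 bp, in 1.34% and 1.20% of the gaps, and stood in 0.387% of the shortest and 0.497% of the longest class. Gaps of at most 50 bp still held summits: 25 of 1592 had SPT5 over S5P and 19 had SPT16 over S5P, and the shortest gap with any summit was 8 bp.

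Occupancy on both sides of the limit of 1000 bp was as follows. Gaps over 900 to 1000 bp held SPT5 over S5P in 5.38% of 669 cases, and gaps over 1000 to 1100 bp in 5.82% of 670. SPT16 over S5P stood in 5.83% just inside and 6.57% just outside, SSRP1 over S5P in 0.299% and 1.49%, and SPT16 over S2P in 1.79% and 1.04%.

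**Figure D4:**
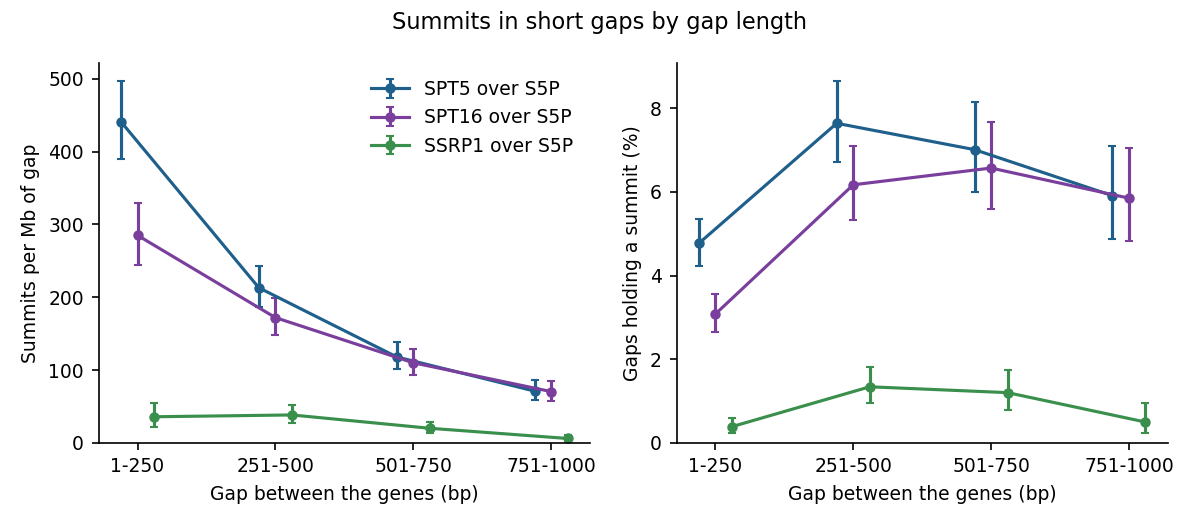
Summits per Mb of gap (left) and percent of gaps that hold a summit (right) in 4 classes of gap length, for 3 lists over S5P; bars are exact 95% intervals for counting error, Poisson on the left and Clopper-Pearson on the right. SPT5 density falls through the classes to 71.1 per Mb, while its share of gaps is 4.77% in the shortest class and 7.64% in the next.

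The gene nearer to a summit and the gene on the far side of the gap differed in what else they held. This was read from lists that, by their names, share no library with the summit's own list, factors over S2P for summits over S5P. The libraries behind each list are not stated. The comparison was not planned. Of 766 SPT5 over S5P summits in short gaps, 172 had an SSRP1 over S2P summit inside the nearer gene, 22.5% (19.5% to 25.6%), and 112 had one inside the farther gene, 14.6% (12.2% to 17.3%). The share among all 18987 genes beside short gaps was 15.8%, so the farther genes were close to that background and the nearer ones above it. SPT16 over S2P lay inside 26.5% of the nearer genes (23.4% to 29.8%) and 16.6% of the farther ones (14.0% to 19.4%), against 17.4% of all genes beside short gaps. ELF7 over S2P lay inside 9.66% of the nearer genes (7.66% to 12.0%) and 6.01% of the farther ones (4.43% to 7.93%), with a background of 7.13%, which lies below the first interval and inside the second.

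For SPT16 over S5P summits, SSRP1 over S2P lay in 37.1% of the nearer genes (33.3% to 41.1%) and 18.9% of the farther ones (15.9% to 22.2%). ELF7 over S2P lay in 18.4% of the nearer genes (15.4% to 21.7%) and 10.3% of the farther ones (7.97% to 12.9%). Beside SSRP1 over S5P summits, SPT16 over S2P lay in 48.5% of the nearer genes (38.3% to 58.7%) and 29.3% of the farther ones (20.6% to 39.3%). Here the farther genes, too, lay above the backgrounds of 15.8%, 7.13% and 17.4% for SSRP1, ELF7 and SPT16 over S2P, unlike the farther genes of SPT5 over S5P summits. The nearer gene of SPT5 over S5P summits was also longer, with a median of 2632 bp against 2182 bp for the farther gene and 2127 bp for all genes beside short gaps. A longer gene gives more room for a summit, and the part of gene length in these shares was not tested. For SPT16 over S5P the lengths were closer, 2385 bp for the nearer gene and 2300 bp for the farther.

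Inside the nearer gene, the strongest FACT summit over S2P mostly stood beyond the gene's centre, away from the gap. Where SPT5 over S5P marked the gap, the strongest SSRP1 over S2P summit of the nearer gene lay on the gap side of the gene's centre in 16 of 172 cases, 9.30% (5.41% to 14.7%). In the farther gene it did so in 51 of 112 cases, 45.5% (36.1% to 55.2%). Gene sides facing short gaps without an SPT5 over S5P summit gave 47.6% of 3559 sides (45.9% to 49.3%). A gene with such gaps on both sides entered once for each side, with opposite results. This draws the share towards an even split, so its closeness to the farther genes shows little. Its interval also treats the sides of a gene as independent. The median distance from the gap to that SSRP1 summit was 1719.5 bp in the nearer gene and 808.5 bp in the farther one.

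SPT16 over S2P gave the same order, with 16.7% of 203 nearer genes (11.9% to 22.6%) and 42.5% of 127 farther genes (33.8% to 51.6%). Gene sides facing gaps without SPT5 over S5P gave 47.6%, with the same limit. Where SPT16 over S5P marked the gap, SSRP1 over S2P lay on the gap side of the centre in 14.0% of 228 nearer genes (9.80% to 19.2%) and 51.7% of 116 farther genes (42.3% to 61.1%). Where SSRP1 over S5P marked it, SPT16 over S2P did so in 22.9% of 48 nearer genes (12.0% to 37.3%) and 55.2% of 29 farther ones (35.7% to 73.6%), and these intervals overlapped. For ELF7, the strongest S2P summit lay on the gap side of the centre, beside an SPT5 over S5P gap, in 37.8% of 74 nearer genes (26.8% to 49.9%) and 52.2% of 46 farther genes (36.9% to 67.1%), and these intervals overlapped. Beside SPT16 over S5P gaps the ELF7 shares were 44.2% (34.9% to 53.9%) and 49.2% (36.4% to 62.1%). Strand was not used, so a start of transcription could not be told from a terminus and orientation was not analysed here.

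**Figure D5:**
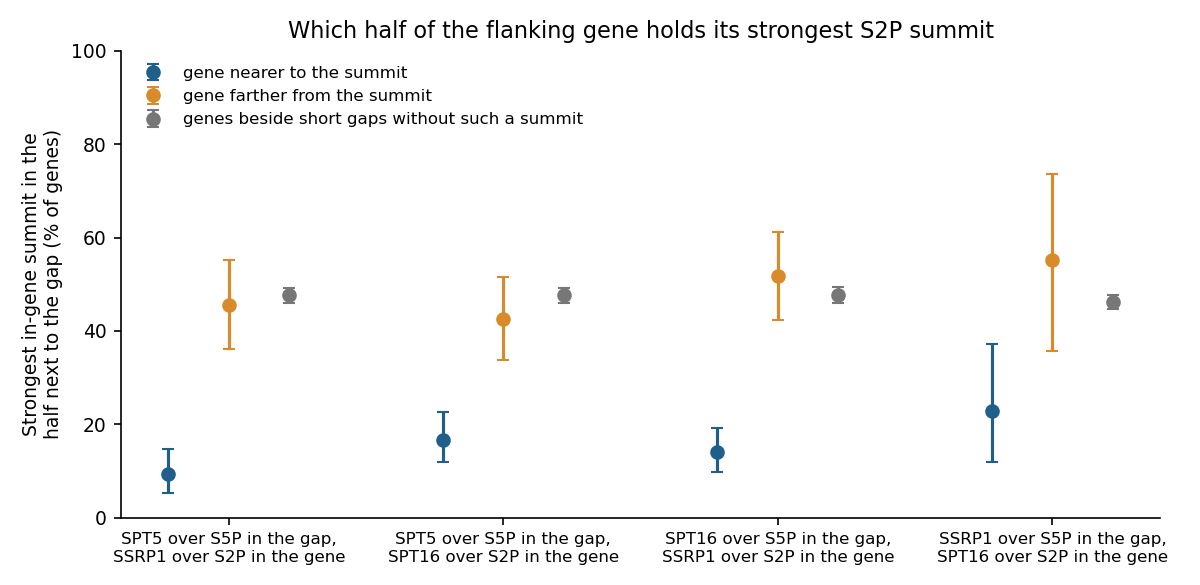
Percent of genes whose strongest FACT summit over S2P lies on the gap side of the gene's centre. Blue is the gene nearer to the gap summit and orange the gene farther from it. Grey is gene sides beside short gaps without such a summit, where a gene with such gaps on both sides enters for each side. This draws the grey values towards an even split. Bars are exact Clopper-Pearson 95% intervals. The nearer genes stand at 9.30% to 22.9%, below the farther genes at 42.5% to 55.2% in each of the 4 pairs of lists.

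Lists that by their names have no library in common could also meet in a gap. Over all 8 lists, those that share libraries included, most occupied gaps held summits of few lists. Of 1066 gaps, 659 had 1 list, 319 had 2, 75 had 3, 9 had 4, 2 had 5 and 2 had 6. The pairs that follow have no library in common under the same reading of the names. Of the 98 gaps with SSRP1 over S5P, 16 also held SPT16 over S2P, which is 16.3% of these gaps and 21.3% of the 75 gaps with SPT16 over S2P. Over all short gaps the shares were 0.589% for SPT16 over S2P and 0.770% for SSRP1 over S5P. The summits of such pairs lay a median of 27 bp apart. SPT5 over S5P and SPT16 over S2P met in 17 gaps, 2.23% of the gaps of SPT5 and 22.7% of those of SPT16, at a median of 23 bp, against 6.00% of all short gaps with SPT5 over S5P. All 4 gaps with ELF7 over S2P also held SPT16 over S5P, at a median of 13.5 bp, against 4.82% of all short gaps.

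The gap between SPC98 and WCRKC1 carried the highest scores. SPC98 is a component of the gamma-tubulin complex that nucleates microtubules, and WCRKC1 is a thioredoxin-like protein. Scores are the authors' −log10 q and rank summits within a list. In this gap of 575 bp on chromosome 5, SPT16 over S5P scored 33.2 at position 2060387 (TAIR10), SSRP1 over S5P 33.0 at 2060399 and SPT5 over S5P 15.3 at 2060404. SPT16 over S2P scored 14.0 and SSRP1 over S2P 13.2 there. All 5 summits lay within 17 bp of one another, 31 to 48 bp from WCRKC1. This summit was the first by score among the short-gap summits of 4 lists and the second of SPT5 over S5P.

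Summits of 6 lists met in 2 gaps. The gap of 278 bp between AT5G24460 and PRR5, a pseudo-response regulator of the circadian clock, had ELF7, SSRP1 and SPT16 over both forms. Their scores were 5.08 for ELF7 over S5P and 7.14 over S2P, 7.75 for SSRP1 over S5P and 10.9 over S2P, and 10.8 for SPT16 over S5P and 12.2 over S2P. The 6 summits lay within 20 bp of one another, 38 to 58 bp from AT5G24460, and SPT5 was not among them. The gap of 361 bp between RPF1, a mitochondrial RNA processing factor, and PP2-A12 was split. ELF7 and SPT16 over both forms stood 137 to 147 bp from RPF1, while SPT5 over S5P stood 53 bp and SSRP1 over S5P 10 bp from PP2-A12.

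Other gaps shared by several lists showed tight or loose groups. Between 3xHMG-box1, a DNA-binding protein with HMG boxes, and TBL23, of the trichome birefringence-like family of wall acetylation proteins, FACT summits over both forms stood 215 to 219 bp from TBL23 and SPT5 over S5P 107 bp from it. The gap between AMI1, an amidase that can form auxin from indole-3-acetamide, and AT1G08985 had the highest score of SPT5 over S5P, 17.9 at position 2886746 on chromosome 1. SPT5 over S2P scored 8.64 at the same base, and SSRP1 stood 60 bp away with 6.74 over S5P and 3.82 over S2P. In the gap of 903 bp between AT1G61460 and AT1G61470, 4 lists placed their summits within 5 bp, 322 to 327 bp from AT1G61460, far from the gene compared with the median of 67 bp for SPT16 over S2P. Between AT1G06000 and AT1G06010, FACT summits stood near the centre of the 688 bp gap, SPT16 329 bp from AT1G06000 and SSRP1 331 to 332 bp from AT1G06010.

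The remaining summits among the 3 highest of an S5P list stood beside the following genes. SPT5 over S5P scored 13.6 and SPT16 over S5P 16.1 in the gap between ALDH2B4, a mitochondrial aldehyde dehydrogenase, and SIS3, a ubiquitin ligase of sugar responses, 16 bp and 11 bp from ALDH2B4. SPT16 over S5P scored 16.2 at 18 bp from GSA2, an enzyme of tetrapyrrole synthesis, in the gap it shares with the sucrose transporter gene SWEET11. The next SSRP1 over S5P scores after that beside WCRKC1 were 11.5, at 97 bp from AT1G78210 in the gap it shares with AT1G78200, and 8.81 beside TBL23.

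The sparsest lists were those of SPT5 over S2P and of ELF7. For SPT5 over S2P, 6 of the 7 summits scored 2.01 to 8.64 and stood 8 to 257 bp from a gene, beside AMI1, AT1G45163, AT2G39910, BLOS2, HLECRK and FTRA2. ELF7 over S5P scored 9.01 at 6 bp from AT5G54710, 5.08 beside AT5G24460, 4.57 beside RPF1 and 2.03 beside AT5G22920. ELF7 over S2P scored 7.14 beside AT5G24460, 5.75 at 2 bp from AT5G57887, 5.35 beside RPF1 and 3.55 beside AT1G61460. So 2 of the 4 gaps of each ELF7 list were the same, and the highest score elsewhere was 42.5 for ELF7 over S5P and 52.2 over S2P. The 15 summits of SSRP1 over S2P scored 2.13 to 13.2, and after those beside WCRKC1 and AT5G24460 the next was 9.02, at 147 bp from AT2G12461.

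Scores did not set the short-gap summits of SPT5 and SPT16 over S5P below the rest of their lists. The median score was 5.01 in short gaps and 4.55 elsewhere for SPT5 over S5P, and 5.36 and 4.68 for SPT16 over S5P. The order was reversed over S2P for SPT16, with 4.16 in short gaps and 5.83 elsewhere. SSRP1 over S5P had 4.56 and 4.91, and SSRP1 over S2P 6.40 and 6.67. The highest scores of every list lay elsewhere, for example 26.8 for SPT5 over S5P and 61.5 for SPT16 over S5P.

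Gene families were matched by the symbols and synonyms of the gene table, so genes listed there by locus code alone are not counted. Short gaps beside any of 35 genes matched as cytosolic ribosomal proteins, a part of that family, held a summit in 11 of 49 cases. This is 22.4% (11.8% to 36.6%), against 8.37% of all short gaps. SPT5 over S5P was present in all 11, and in 764 of the 1066 occupied gaps among all short gaps. In the 11 ribosomal protein gaps, 12 of 18 summits stood nearer to the ribosomal protein gene. Summits of a gap are not independent, and no reference share was computed, so no lean to these genes is claimed. The highest were SPT5 over S5P at 12.1, 86 bp from RPL23AB, and at 10.4, 15 bp from AT2G36170, which also counts among the ubiquitin genes. Gaps beside ubiquitin genes were occupied in 3 of 18 cases (3.58% to 41.4%), an interval that includes the background.

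The intervals of the other families included the background. Occupied gaps were 3 of 40 for translation factors, with SPT16 over S5P 40 bp from EIF4B2 and SPT5 over S5P 54 bp from EIF4E, the cap-binding protein. They were 2 of 23 for tubulins and actins, where SPT5 over S5P stood 1 bp from TUB2 in the gap it shares with TUB3 and SPT16 over S5P scored 8.19 in the gap of 79 bp between AT5G44330 and TUB4. They were 3 of 46 for heat shock proteins, among them the gap of HSP90.1, in which both summits stood nearer to AT5G52650. They were 2 of 43 for light-harvesting and photosystem genes, 1 of 31 for histones and 1 of 60 for ERF and WRKY transcription factors. The histone case was HTB2, an H2B gene, with SPT16 over both forms 17 bp from its neighbour AT5G22890, and the last case was WRKY7, 68 bp from SPT16 over S5P.

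Chromosomes were alike. Occupied short gaps ranged from 7.77% on chromosome 4 to 8.73% on chromosome 1, and the density of SPT5 over S5P from 164 to 176 summits per Mb of short gap. SPT16 over S5P ranged from 122 to 140 per Mb.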

How the data were processed

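ChIP-seq summit lists were analysed for 4 factors over each of 2 RNAPII forms. The tools were MACS3, Bowtie2, deepTools, SAMtools 1.16.1 and Trimmomatic 0.39 on TAIR10, per the submitters' processing notes, and other versions, MACS3 settings and pooling are not given in these sources. The authors deposited, for each summit, a score that was read as −log10 of a q-value, with none below that of a q of 0.01. Every value column was used (0 unmapped).

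Summit positions count from 1. Genes came from the RefSeq table of TAIR10.1 (27432 protein-coding and 10455 noncoding genes on chromosomes 1 to 5), from which no coordinate is printed. A gap is a run of bases outside every protein-coding gene, and densities use gap bases outside noncoding genes. Shares carry exact Clopper-Pearson and densities exact Poisson 95% intervals, and medians order-statistic intervals; they cover counting error only, and no p-value was computed. Python 3.11.15, numpy 2.4.6, pandas 2.3.3, SciPy 1.17.1 and matplotlib 3.10.9 were used; counting steps were tested on simulated data.

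Named genes flank the 3 highest-scoring summits of each list, the 8 gaps with most lists, all gaps of lists with under 10 short-gap summits, gaps with 2 summits of a list, or belong to 8 families (the 2 highest-scoring summits of each); those lists and the gaps with 2 summits were chosen after their values were seen. The summits and gene lists were chosen with earlier results of these data known. Orientation of the genes and sequence around summits were planned and not analysed here, as neither strand nor genome was used. The gap and gene sides of gene ends, the nearer and farther genes, and the meeting of lists in a gap were not in the plan. The result for 1 gap is not reported here.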

Additional observations from a re-analysis of the deposited data

How the results depend on the processing

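Of 140 repeats of the shares, differences, median distances and near-gene values under another setting, 85 stayed within the interval of the main value and 55 moved outside it. Only the differences between forms could change sign, as the other values cannot be negative. No difference changed sign, and that of ELF7 fell to 0 at a score of at least 10. Limiting gaps to 500 bp gave shares of 17.1% for SPT5 over S5P, 1.50% for SSRP1 over S5P, 0.0734% for SSRP1 over S2P, 4.86% for SPT16 over S5P and 0.502% for SPT16 over S2P. The differences between forms were then 15.4 points for SPT5, 1.43 for SSRP1 and 4.35 for SPT16, and the median distances 44 bp for SPT5 over S5P, 38 bp for SPT16 over S5P and 39 bp for SPT16 over S2P. Allowing gaps up to 2000 bp gave 33.5% for SPT5 over S5P, 5.70% for SPT5 over S2P, 3.41% for SSRP1 over S5P, 0.642% for SSRP1 over S2P, 11.6% for SPT16 over S5P and 1.85% for SPT16 over S2P, with differences of 27.8, 2.76 and 9.76 points for SPT5, SSRP1 and SPT16. The limit sets which gaps are counted, and with it how far from a gene a summit can lie.

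A score of at least 5 gave 30% for SPT5 over S5P, 10.1% for SPT16 over S5P and 0.776% for SPT16 over S2P, and a difference of 9.30 points for SPT16. A score of at least 10 left 24 summits of SPT5 over S5P in short gaps and 1 of SPT5 over S2P, whose share was then 16.7%, so that the SPT5 difference was 9.14 points. It gave 0.476% for SSRP1 over S5P, 0.125% for SSRP1 over S2P, 6.63% for SPT16 over S5P and 0.260% for SPT16 over S2P, with differences of 0.351 points for SSRP1 and 6.37 for SPT16. ELF7 then had 0 summits in short gaps over either form, a share of 0% in both lists and a difference of 0. The median distances at this score were 30 bp for SPT5 over S5P, 25 bp for SPT16 over S5P, 66.5 bp for SSRP1 over S5P (2 summits) and 96.5 bp for SPT16 over S2P (4 summits).

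Moving the genes by 50 bp to either side lowered the shares of SPT5 over S5P to 23.3% and 23.0% and of SPT16 over S5P to 7.45% and 7.22%, with differences of 20.9 and 20 points for SPT5 and 6.36 and 6.28 for SPT16. Median distances were then 60 and 61 bp for SPT5 over S5P, 62 and 69 bp for SPT16 over S5P, and 72 bp after the move down for SSRP1 over S5P. Keeping summits in noncoding genes, and counting 1 summit per gap and list, moved no value outside its interval.

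The settings for the near-gene values were chosen after the data were seen. With a score of at least 5, the strongest SPT16 over S2P summit lay on the gap side of the centre in 7.84% of the nearer genes of SPT5 over S5P gaps. In gaps over 250 bp it did so in 52.4% of the farther genes, and SSRP1 over S2P in 65.4% of the farther genes of SPT16 over S5P gaps.

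No paired analysis was possible because the lists have no column per library, and for the same reason no library was left out. The settings planned for the orientation of the flanking genes were not run, since strand was not used. Lists with under 20 short-gap summits limit any statement about ELF7, and depth is unknown.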

Other observations

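Noncoding genes in short gaps held the 48 summits that were left out, of 1632 in such gaps. By list, 15 were SPT5 over S5P and 2 SPT5 over S2P, 7 SSRP1 over S5P and 5 SSRP1 over S2P, and 11 SPT16 over S5P and 8 SPT16 over S2P. Long noncoding RNA genes held 24 of them, and 2 more lay in both a long noncoding RNA gene and a snoRNA gene. The highest scores were those of SSRP1 in the snoRNA gene AT1G07393, at 14.5 over S5P and 10.8 over S2P on the same base, and that of SPT16 over S5P in MIR775, at 11.7, against 3.75 for SPT16 over S2P on the same base. MIR775 lies in the gap between AT1G78200 and AT1G78210, where SSRP1 over S5P scored 11.5 outside it. AT5G15022 and AT5G02315, in 1 gap of 919 bp, held summits of SPT5, SSRP1 and SPT16.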
